A study of Mus musculus with 6 samples.

Results

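The receptors described here are 8 scavenger receptors and a pair of receptors for dying cells: *Msr1*, *Marco*, *Cd36*, *Scarb1*, *Olr1*, *Mrc1*, *Cd163*, *Stab1*, *Mertk* and *Axl*. These 10 genes were chosen with earlier results of these data known. Their probes were taken by name, as every probe on the array whose gene name was 1 of the 10, without regard to its values. This gave 12 of the 55681 probes, since *Msr1* and *Scarb1* had 2 each. The cells were murine bone marrow-derived macrophages (BMDMs), grown from the marrow of wild-type female C57/B6 mice for 7 days in L929-conditioned medium. The labels put the mice at 6 to 8 weeks of age, and the methods of the study give an older range. Untreated BMDMs were compared with BMDMs exposed for 4 h to LPS, the TLR4 ligand of Gram-negative bacteria, and with BMDMs that received 10 μM HBX41,108, an inhibitor of the deubiquitinase USP7, 30 min before the same LPS (LPS+USP7i). The LPS concentration was 100 ng/ml by the series description, while the treatment protocol of the labels gives 100 ng per μl. Each group held 2 arrays from independent experiments, so every group mean rests on 2 values. Whether the LPS cells received the solvent of the inhibitor is not stated, so LPS+USP7i minus LPS includes any effect of the solvent.

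Scavenger receptors bind modified lipoproteins, microbial surfaces and cell debris, and macrophages use them to take up lipid and particles. Efferocytosis is the uptake of apoptotic cells. In it, the TAM receptor tyrosine kinases TYRO3, AXL and MERTK bind phosphatidylserine on the dying cell through the bridging ligands GAS6 and protein S, and they also restrain inflammatory signaling. In macrophages MERTK is known as the TAM receptor of resting and anti-inflammatory states, and AXL as the receptor that inflammatory stimuli induce.

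The cultures carried the markers of their label. All 8 macrophage markers examined, *Csf1r* the brightest, were well above background on all 6 arrays. Markers of other lineages were partly present: 6 of 8 neutrophil markers (*Elane* the brightest), 2 of 5 T cell markers (*Cd3e*), 1 of 6 dendritic cell markers (*Siglech*), 1 of 4 B cell markers (*Cd79a*), 1 of 5 endothelial markers (*Kdr*) and 1 of 4 mast cell markers (*Kit*) were well above background on all arrays, and 0 of 5 fibroblast markers (*Dcn*) and 0 of 4 erythroid markers (*Hba-a1*) were. Markers well above background on 0 arrays included *Cd3g*, *Cd8a*, *Flt3*, *Xcr1*, *Cd209a*, *Clec9a*, *Col1a1*, *Col3a1*, *Pdgfra*, *Tie1*, *Tek*, *Mcpt4* and *Alas2*. From the same lists, *Cd3e*, *Lck*, *Siglech*, *Cd79a*, *Kdr* and *Kit* were well above background on all 6. Some markers moved with treatment, and those named here were singled out after their values were seen. Of the macrophage markers, *Itgam* was 1.58-fold lower with LPS (adjusted p = 0.0233), and *Fcgr1* was 3.04-fold lower in LPS+USP7i than in LPS (0.0317) and 2.40-fold lower than in untreated cells (0.0374). *Cd14*, which is also in a list below, passed in opposite directions with LPS and with the inhibitor. The summed signal of the 8 macrophage markers was 764800 and 735700 without treatment, 750300 and 762800 after LPS and 648700 and 598400 after LPS+USP7i. This sum includes *Cd14*, whose log2 signal was 15.68 and 15.82 without treatment, 17.41 and 17.47 after LPS and 15.99 and 16.26 after LPS+USP7i. It therefore does not show the course of the other macrophage markers alone. The T cell marker *Lck* was 18.7-fold higher with LPS (adjusted p = 0.00331) and 5.55-fold lower with LPS+USP7i than with LPS (0.0161), while *Cd3e* passed in none of the 3 comparisons (0.981, 0.519 and 0.432). The dendritic cell marker *Zbtb46*, not well above background without treatment, was at least 5.65-fold higher with LPS (0.00435). The B cell marker *Pax5* was well above background in LPS+USP7i only. There it was at least 1.393-fold higher than with LPS (0.0244) and at least 2.075-fold higher than in untreated cells (0.0105). In bulk RNA of this kind, fewer cells of a type and less RNA per cell cannot be told apart. The arrays lay on 1 slide, with replicate 1 of each group in column 1 and replicate 2 in column 2. Untreated cells were in row 1, LPS in row 2 and LPS+USP7i in row 4, so that row and treatment cannot be told apart.

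The promoters of *Olr1*, *Axl* and *Stab1* are printed here because these 3 receptors passed the test between groups and had an entry in the promoter table. Each runs from 250 bases before to 50 bases after the gene start on the gene's own strand, from RefSeq on build GRCm38.p6: chr6:129507116-129507415, chr7:25788684-25788983 and chr14:31168592-31168891, all on the minus strand. Of the 10 receptor genes, 8 had an entry; *Msr1* and *Scarb1* had none. Capitals mark matches, on either strand, to 5 letter patterns: GGNNTTTCC (NF-κB), TGANTCA (AP-1), TGACNNNGC (antioxidant response element core), GAGGAA (PU.1 core) and GAAANNGAA (interferon response).
Olr1: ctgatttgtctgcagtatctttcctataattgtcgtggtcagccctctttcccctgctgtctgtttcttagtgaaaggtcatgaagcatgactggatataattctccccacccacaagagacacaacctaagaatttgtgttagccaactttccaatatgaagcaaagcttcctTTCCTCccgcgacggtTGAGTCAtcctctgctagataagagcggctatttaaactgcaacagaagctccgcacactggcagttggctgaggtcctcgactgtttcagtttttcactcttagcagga
Axl: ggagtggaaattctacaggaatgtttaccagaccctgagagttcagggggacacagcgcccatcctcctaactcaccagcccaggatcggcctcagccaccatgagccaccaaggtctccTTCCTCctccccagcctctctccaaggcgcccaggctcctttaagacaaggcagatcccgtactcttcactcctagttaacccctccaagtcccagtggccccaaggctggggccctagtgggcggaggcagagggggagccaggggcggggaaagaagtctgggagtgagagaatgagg
Stab1: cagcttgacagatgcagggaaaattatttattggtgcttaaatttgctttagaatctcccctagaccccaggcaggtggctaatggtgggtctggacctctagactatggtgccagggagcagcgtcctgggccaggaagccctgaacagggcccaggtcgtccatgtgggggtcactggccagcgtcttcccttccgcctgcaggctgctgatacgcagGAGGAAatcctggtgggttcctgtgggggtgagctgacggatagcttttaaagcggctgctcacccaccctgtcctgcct
*Olr1* held an AP-1 pattern that began 60 bases before the start and a PU.1 core, read from the other strand, that began 76 bases before it. *Axl* held 1 PU.1 core 130 bases before its start and *Stab1* 1 core 30 bases before its start. Among the other promoters, *Marco* held an NF-κB pattern and a PU.1 core, *Mrc1* an NF-κB pattern and 3 PU.1 cores, and *Cd36*, *Cd163* and *Mertk* held 0 matches. No match overlapped another. Of all 32851 promoter windows of this length, 5.82% held the NF-κB pattern, 7.81% the AP-1 pattern, 12.4% the antioxidant response element core, 28.3% the PU.1 core and 8.56% the interferon response pattern. A match describes the letters of the window and not a bound site.

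LPS moved these receptors in both directions. *Olr1*, *Axl* and a probe of *Msr1* were higher than in untreated cells, and *Stab1* and a probe of *Scarb1* were lower. Thus 3 of the 12 probes were called higher (adjusted p under 0.05, limma), against 7.09% of all probes tested, and 2 were called lower, against 10.7%. The median log2 difference was −0.07 over the 12 probes and 0.0045 over all probes.

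*Olr1* encodes LOX-1, a lectin-like receptor for oxidized LDL. Its normalized log2 signal was 2.13 and 2.15 on the untreated arrays, 9.11 and 9.28 after LPS and 8.77 and 8.91 after LPS+USP7i. Untreated cells were not well above background, and both stimulated groups were on every array. In the quantile-normalized processed signal *Olr1* was therefore at least 38.9-fold higher with LPS (adjusted p = 0.00152). For this bound the dim group is given, array by array, the weakest quantile-normalized signal that still counted as well above background. The bound holds for this signal only: with normexp correction, where an offset of 50 is added to every signal, the log2 difference was 3.40.

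*Msr1* encodes scavenger receptor A, which binds acetylated LDL and bacterial surfaces. Its first probe (A_52_P127130) read 9.88 and 10.49 without treatment, 11.78 and 11.80 after LPS and 10.87 and 11.37 after LPS+USP7i. The second (A_52_P607128) read 10.12 and 10.92, 12.51 and 12.62, and 10.70 and 11.65 in the same order. Both LPS arrays lay above all others on either probe. The first probe rose by 1.60 with LPS on the log2 scale (SE 0.28, adjusted p = 0.0316), a 3.04-fold increase. The second differed by 2.04 (SE 0.44, adjusted p = 0.0521). It passed under 75th percentile scaling (0.0147), with normexp (0.00889), in the deposited table (0.0238) and with dim probes left out (0.0109).

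*Axl* read 10.79 and 10.24 without treatment, 12.10 and 11.65 after LPS and 9.70 and 9.61 after LPS+USP7i. Its 3 groups did not overlap, with LPS the highest and LPS+USP7i the lowest. Of the T cell markers well above background on all arrays, *Lck* was also highest with LPS by group mean, and *Cd3e* was highest with LPS+USP7i. Of the macrophage markers, *Fcgr1*, *Csf1r*, *Adgre1* and *Aif1* had their lowest mean with LPS+USP7i, and *Cd68*, *Itgam* and *Lyz2* with LPS. The summed macrophage markers were lowest with LPS+USP7i. That sum includes *Cd14*, which was itself higher with LPS and lower with the inhibitor than with LPS. The part of these markers was not tested. With LPS *Axl* rose by 1.36 (SE 0.26, adjusted p = 0.0381), or 2.57-fold.

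*Stab1* encodes stabilin-1, a receptor for phosphatidylserine and for oxidized LDL found on anti-inflammatory macrophages. It read 14.25 and 14.04 without treatment, 12.96 and 12.77 after LPS and 13.08 and 12.75 after LPS+USP7i. Both untreated arrays lay above the 4 stimulated arrays, which overlapped. *Stab1* fell by 1.28 with LPS (SE 0.16, adjusted p = 0.0145), a 2.43-fold decrease.

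*Scarb1* encodes SR-B1, the HDL receptor. Its probe A_55_P1954021 read 11.50 and 11.46 without treatment, 10.93 and 10.78 after LPS and 10.88 and 10.74 after LPS+USP7i. It fell by 0.62 with LPS (SE 0.09, adjusted p = 0.0203), or 1.54-fold. The other probe, A_55_P2088965, read 9.63 and 9.68, 9.43 and 8.83, and 9.29 and 8.99. On both probes the untreated arrays were the highest, and the second did not pass (−0.53, SE 0.24, adjusted p = 0.273). The second probe differed by −0.83 without LPS replicate 1 and by −0.23 without LPS replicate 2.

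The *Olr1* call held with any of the 6 arrays left out, whereas those of *Msr1* and *Axl* were lost with each (adjusted p 0.0503 to 0.128 and 0.0603 to 0.132) and those of *Stab1* and *Scarb1* without either untreated or either LPS array (0.0593 to 0.0761 and 0.0522 to 0.102), and that of *Scarb1* also in the deposited table (0.0532). Directions of these 5 genes did not change under 75th percentile scaling, which moved the median of all probes to 0.51. Relative to that median, the differences were 1.28 and 1.79 for the *Msr1* probes, 1.06 for *Axl*, −1.27 for *Stab1* and −0.93 for the called *Scarb1* probe. Of all calls, 39.9% were in the higher direction here and 79.3% under that scaling.

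**Figure D1:**
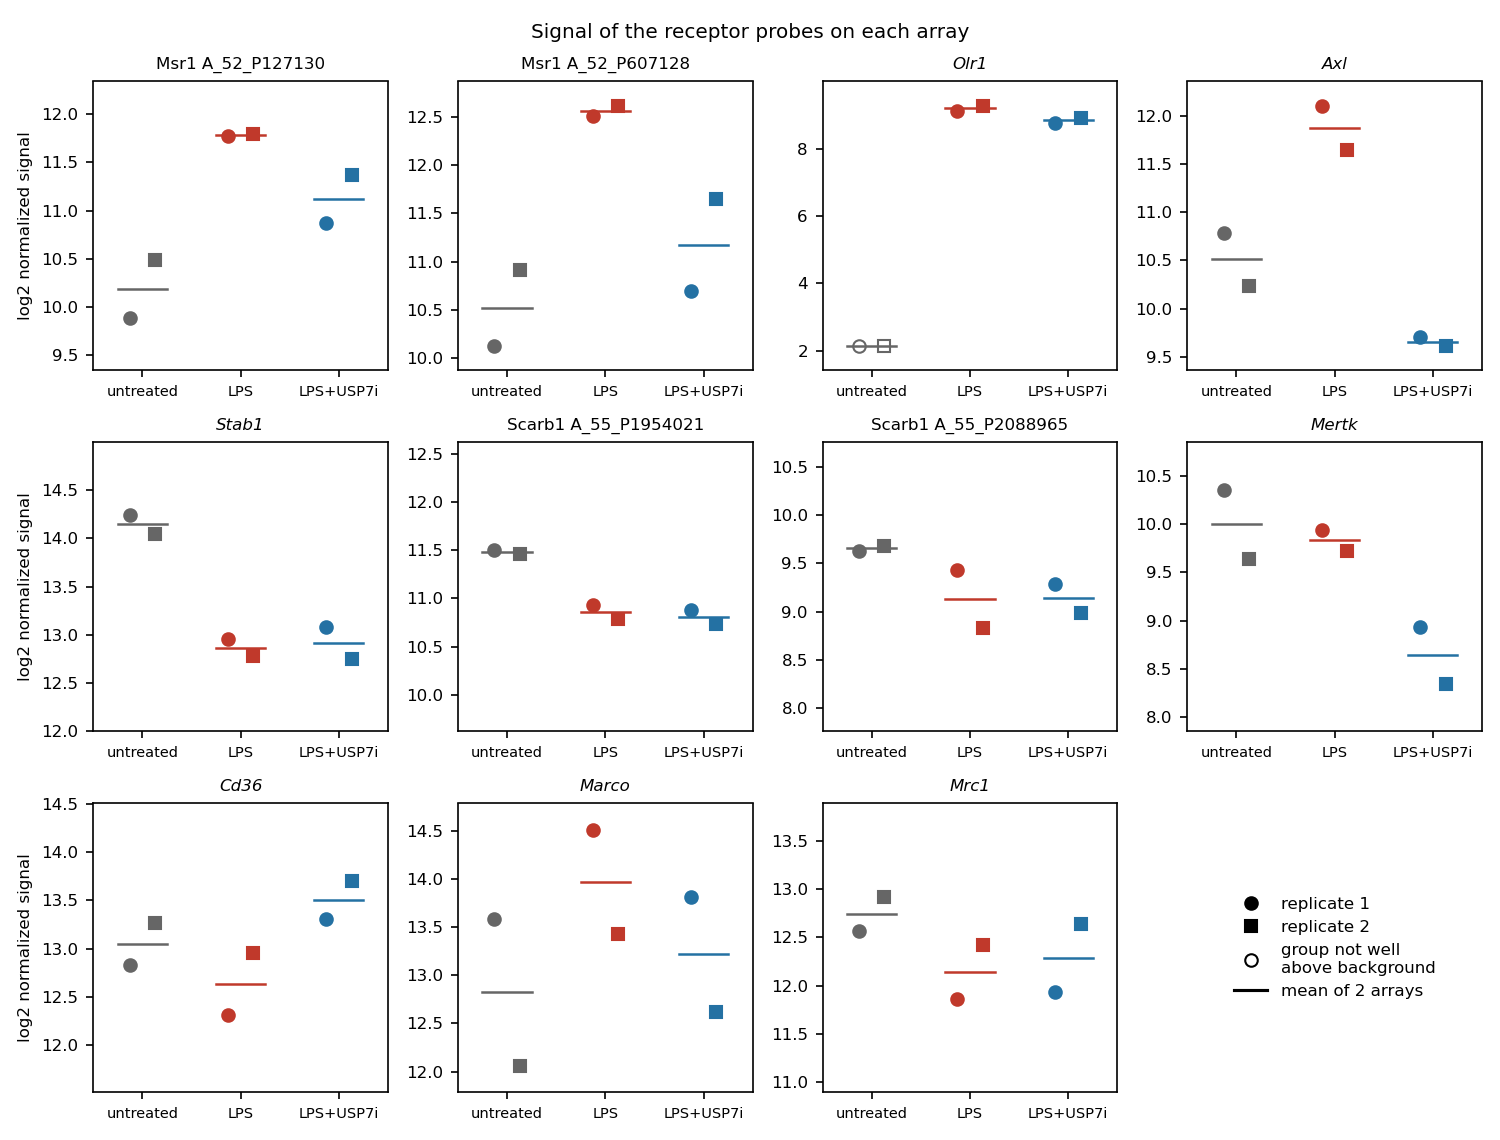
Log2 normalized signal (vertical axes, each panel with its own range) of 11 receptor probes in the 3 groups; circles are replicate 1, squares replicate 2, lines the mean of 2 arrays, and open symbols a group not well above background. *Axl* is highest with LPS (12.10 and 11.65) and lowest with LPS+USP7i (9.70 and 9.61), while *Olr1* is high in both stimulated groups.

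With the USP7 inhibitor added to LPS, *Axl* was the receptor called against LPS alone. It was lower, and it was also 1 of the genes called higher with LPS. 1 of 12 probes was thus called lower, against 3.79% of all probes, and 0 of 12 were called higher, against 4.66%. At an unadjusted limma p under 0.05, 4 of the 12 were lower and 1 was higher, beside 5731 lower and 6955 higher of the 55680 probes tested. The median difference was −0.23 over the 12 probes and −0.001 over all probes. This comparison uses the same LPS arrays as LPS minus untreated.

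*Axl* fell by 2.22 with the inhibitor (SE 0.26, adjusted p = 0.0253), a 4.65-fold decrease, and both LPS+USP7i arrays lay below both LPS arrays. Between arrays of the same number *Axl* differed by −2.40 and −2.03, though no label links these numbers across groups. Its signal in LPS+USP7i was 0.85 below that of untreated cells, a difference that did not pass (SE 0.26, adjusted p = 0.137) except with normexp (0.0430) and with dim probes left out (0.0458). The call was lost with any 1 of the 6 arrays left out: the adjusted p was 0.0631 without either untreated array, 0.0868 and 0.0632 without LPS replicate 1 and 2, and 0.0930 and 0.0766 without LPS+USP7i replicate 1 and 2. In a fit of only the 2 groups, it was 0.0631, and 0 probes of the array were called.

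*Mertk* read 10.36 and 9.64 without treatment, 9.94 and 9.72 after LPS and 8.94 and 8.34 after LPS+USP7i. Untreated and LPS arrays overlapped, and both inhibitor arrays lay below these 4. LPS alone gave a difference of −0.17 (SE 0.34, adjusted p = 0.876), which turned to 0.19 without untreated replicate 1. LPS+USP7i differed from LPS by −1.20 (SE 0.34, adjusted p = 0.136), a 2.29-fold lower mean that did not pass the threshold. From untreated cells it differed by −1.36 (SE 0.34, adjusted p = 0.0891), which passed under 75th percentile scaling (0.0289), with normexp (0.0183), in the deposited table (0.0446) and with dim probes left out (0.0233). The difference from LPS passed after normexp correction (adjusted p = 0.0410) and when dim probes were left out (0.0420), and its adjusted p ranged from 0.0410 to 0.347 over the alternatives.

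*Olr1* differed by −0.35 between LPS+USP7i and LPS (SE 0.09, adjusted p = 0.120), which passed with normexp (−0.40, adjusted p = 0.0430), and its 2 LPS+USP7i arrays lay below both LPS arrays. For *Msr1* the difference was −0.67 on the first probe (SE 0.28, adjusted p = 0.287) and −1.39 on the second (SE 0.44, adjusted p = 0.169), with inhibitor arrays below LPS arrays on both. *Stab1* (0.05, SE 0.16) and *Scarb1* (−0.05, SE 0.09, and 0.01, SE 0.24) had differences below their standard errors, with arrays of the groups overlapping. With 2 arrays per group, the smallest two-sided p that exact permutation can reach for a single receptor is 0.333.

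**Figure D2:**
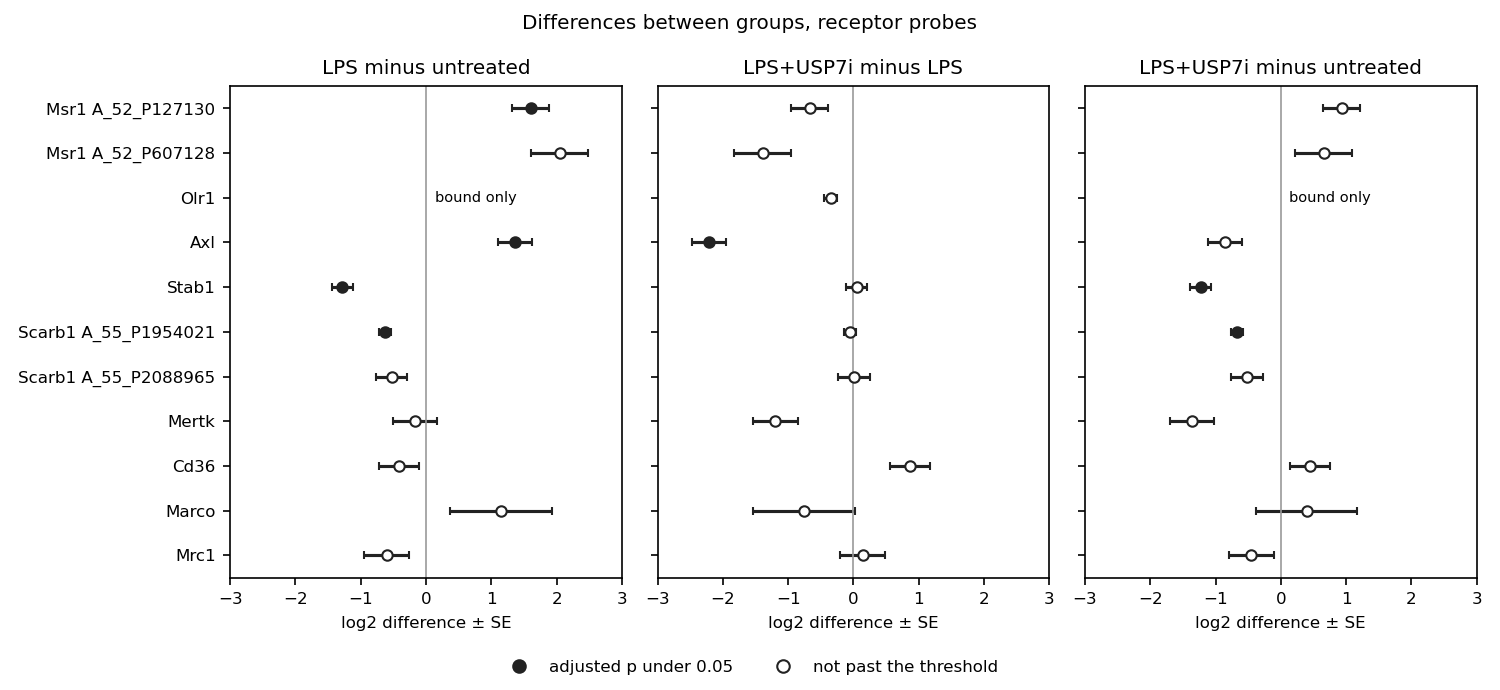
Log2 differences with their standard error (horizontal axes) for 11 receptor probes in the 3 comparisons; filled points have an adjusted p under 0.05, and *Olr1* is a bound where untreated cells were not well above background. *Axl* is the filled point of the middle panel at −2.22, and *Stab1* and a probe of *Scarb1* are filled and negative in both outer panels.

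Compared with untreated cells, LPS+USP7i cells kept the high *Olr1* and the low *Stab1* and *Scarb1*. Of the 12 probes, 1 was called higher, against 5.65% of all probes, and 2 were called lower, against 7.34%. *Olr1* was at least 30.5-fold higher in the quantile-normalized processed signal (adjusted p = 0.00384), with a log2 difference of 3.002 after normexp correction. *Stab1* fell by 1.23 (SE 0.16, adjusted p = 0.0209), or 2.35-fold, and the *Scarb1* probe A_55_P1954021 fell by 0.67 (SE 0.09, adjusted p = 0.0221), or 1.59-fold. The median difference was −0.26 over the 12 probes and 3e-04 over all. The call for *Stab1* was lost without either untreated array, either LPS array or LPS+USP7i replicate 2 (adjusted p 0.0549 to 0.100), and that for *Scarb1* without either untreated array or LPS+USP7i replicate 2 (0.0671 to 0.110) and in the deposited table (0.0600). Under 75th percentile scaling, which moved the median of all probes by 0.55 and the share of calls in the higher direction from 43.5% to 82.7%, the differences relative to that median were −1.45 and −1.10 for *Stab1* and this *Scarb1* probe.

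Besides *Mertk*, 4 receptors were called in none of the 3 comparisons by the fit without replicate number: *Cd36*, *Marco*, *Mrc1* and *Cd163*. *Cd36*, which imports fatty acids and oxidized LDL, read 12.83 and 13.26 without treatment, 12.31 and 12.95 after LPS and 13.31 and 13.70 after LPS+USP7i. Both inhibitor arrays lay above the other 4, and the LPS and untreated arrays overlapped. Its difference in LPS+USP7i minus LPS was 0.87 (SE 0.31, adjusted p = 0.209). In LPS minus untreated it was −0.42 (SE 0.31, adjusted p = 0.504), and −0.10 without LPS replicate 1 and −0.73 without LPS replicate 2. Under 75th percentile scaling it was 0.05, or −0.46 relative to the median of all probes under that scaling.

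*Mrc1*, the mannose receptor used as a marker of alternatively activated macrophages, read 12.57 and 12.92 without treatment, 11.86 and 12.43 after LPS and 11.94 and 12.64 after LPS+USP7i. Untreated arrays were the highest in replicate 1 and in replicate 2, and those of the stimulated groups overlapped. The difference with LPS was −0.60 (SE 0.34, adjusted p = 0.391). It was −0.32 without LPS replicate 1 and −0.88 without LPS replicate 2. *Cd163*, the receptor for hemoglobin bound to haptoglobin, was not well above background on any of the 6 arrays, and no fold is given.

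*Marco*, a class A receptor for bacteria and inhaled particles, read 13.58 and 12.06 without treatment, 14.51 and 13.43 after LPS and 13.81 and 12.62 after LPS+USP7i. Replicate 1 was above replicate 2 by more than 1 on the log2 scale in every group, and all 3 groups overlapped. The difference with LPS was 1.15 (SE 0.78, adjusted p = 0.485). Between arrays of the same number, which no label links across groups, it was 0.92 for replicate 1 and 1.37 for replicate 2. The difference of means was 0.39 without untreated replicate 2 and 1.91 without untreated replicate 1. The B cell markers also differed between replicates: the summed normalized signal of the 4 genes was 238 and 68.8 without treatment, 531 and 125 after LPS and 337 and 108 after LPS+USP7i. Their part in the *Marco* values was not tested. In the opposite way, replicate 2 was above replicate 1 in all 3 groups for *Cd36*, *Mrc1* and both *Msr1* probes, and so was the summed signal of the 8 neutrophil markers, at 5247 and 6960, 5870 and 11800, and 6206 and 9795 in the same order. Among these markers *Ly6g* and *Mpo*, singled out after their values were seen, went the other way, with replicate 1 higher in every group. The part of these markers was not tested.

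*Tyro3*, the TAM receptor beside *Axl* and *Mertk*, belongs to the list of other efferocytosis receptors. It read 5.03 and 5.33 without treatment, 7.89 and 7.99 after LPS and 7.00 and 7.01 after LPS+USP7i, and its groups did not overlap. It rose by 2.76 with LPS (SE 0.12, adjusted p = 0.00310), or 6.78-fold, and fell by 0.94 with the inhibitor (SE 0.12, adjusted p = 0.0299), which left it 3.55-fold above untreated cells (adjusted p = 0.00713). Of the ligands, *Pros1*, which encodes protein S, fell by 0.79 in LPS+USP7i minus untreated (SE 0.10, adjusted p = 0.0212). *Gas6*, named for its role after its values were seen, read 15.65 and 15.17 without treatment, 14.68 and 14.42 after LPS and 14.90 and 14.78 after LPS+USP7i, and passed in 0 comparisons (adjusted p = 0.0658, 0.548 and 0.190 for LPS minus untreated, LPS+USP7i minus LPS and LPS+USP7i minus untreated).

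**Figure D3:**
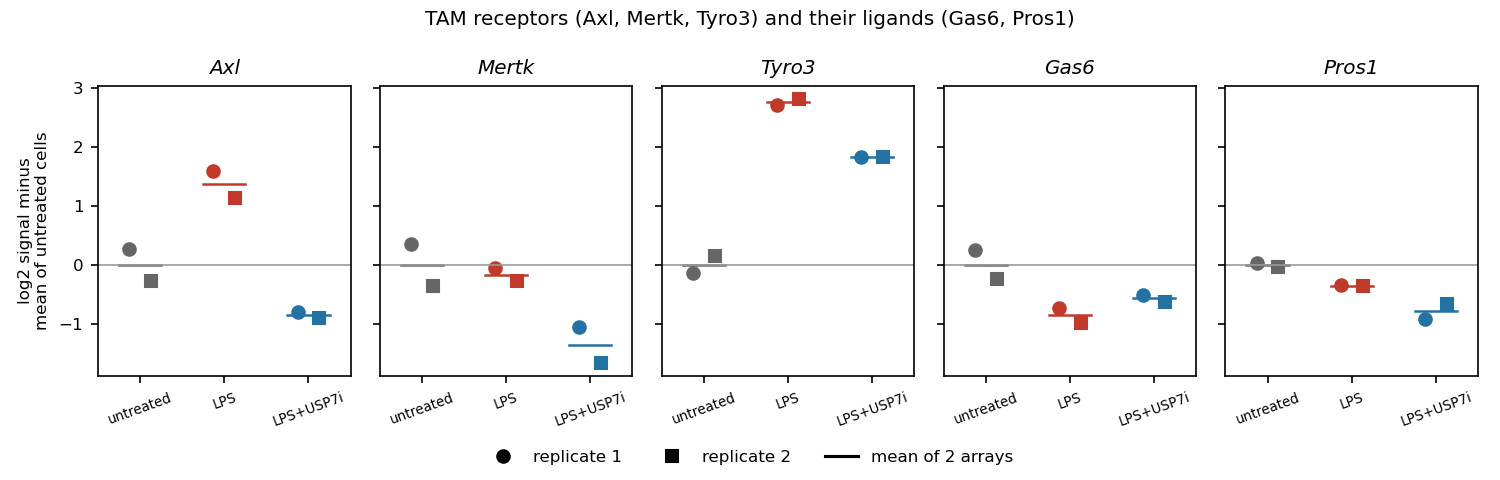
Log2 signal minus the mean of the untreated arrays (vertical axis) for the TAM receptors and their ligands in the 3 groups; circles are replicate 1, squares replicate 2 and lines the mean of 2 arrays. *Axl* and *Tyro3* rise with LPS, by 1.36 and 2.76, and with LPS+USP7i *Axl* lies below and *Tyro3* above the untreated mean.

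Of 22 other scavenger receptors, 3 rose and 4 fell with LPS, against 7.09% and 10.7% of all probes, with a median difference of 0.0062. *Cd14*, the LPS co-receptor, rose 3.23-fold (adjusted p = 0.00518) and *Cxcl16*, a membrane chemokine that binds oxidized LDL, 1.89-fold (0.0104). *Lrp1*, a large endocytic receptor of the LDL receptor family, was 2.25-fold lower (0.0193) and *Scarf2* 2.14-fold lower (0.0187). In LPS+USP7i minus LPS, 1 rose and 3 fell (median −0.21), against 4.66% and 3.79% of all probes. *Cd14* was 2.48-fold lower (0.0184) and *Cxcl16* 2.06-fold lower (0.0190), whereas *Clec7a*, the β-glucan receptor dectin-1, rose 1.79-fold (0.0173). With LPS alone *Clec7a* was 1.66-fold lower than in untreated cells (0.00937), and LPS+USP7i minus untreated did not pass (0.537). Compared with untreated cells, LPS+USP7i had 0 higher and 1 lower, *Lrp1* (2.59-fold, adjusted p = 0.0179), against 5.65% and 7.34% of all probes and with a median of −0.07. *Scarf1*, counted as called with LPS and with the inhibitor, was not well above background in any group.

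Of 23 other efferocytosis receptors and bridging molecules, 3 rose and 2 fell with LPS (median −0.13; all probes 7.09% and 10.7%). *Cd300lb*, an activating CD300 receptor for phosphatidylserine, read 12.05 and 12.31 without treatment, 7.54 and 7.34 after LPS and 11.69 and 11.14 after LPS+USP7i. Its untreated and inhibitor arrays were all far above the LPS arrays: it was 26.8-fold lower with LPS (adjusted p = 0.00331) and 15.8-fold higher in LPS+USP7i than in LPS (adjusted p = 0.0119). *Itgav*, the αv integrin chain that binds the bridging protein MFG-E8, rose 4.17-fold with LPS (0.00343) and was 2.22-fold lower with the inhibitor than with LPS (0.0178). *Cd300lf* was 2.48-fold lower with LPS (0.00937). With the inhibitor, 2 rose and 2 fell relative to LPS (median 0.0086; all probes 4.66% and 3.79%), among them *Havcr2*, which encodes the phosphatidylserine receptor TIM-3, 2.80-fold higher (0.0338). Relative to untreated cells, 2 rose and 2 fell (median −0.03; all probes 5.65% and 7.34%). *Adgrb1*, counted as higher with LPS, was not well above background in any group.

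The 24 genes of engulfment and of its signals had 5 higher and 8 lower with LPS (median −0.24; all probes 7.09% and 10.7%), 0 higher and 4 lower in LPS+USP7i minus LPS (median −0.27; all probes 4.66% and 3.79%), and 2 higher and 8 lower in LPS+USP7i minus untreated (median −0.48; all probes 5.65% and 7.34%). The shares given beside the 4 lists include dim probes, whereas list genes took their brightest probe. In the fit with dim probes left out, 17.8% of probes were called higher and 27.5% lower with LPS. The shares of that fit were 15% and 13.1% in LPS+USP7i minus LPS, and 15.9% and 21% in LPS+USP7i minus untreated. *Xkr8*, a scramblase that exposes phosphatidylserine, rose 12.3-fold with LPS (adjusted p = 0.0105) and was 4.99-fold lower with the inhibitor than with LPS (0.0478). *Cd47*, the don't-eat-me signal, was 1.87-fold lower with the inhibitor than with LPS (0.0212). With LPS alone *Cd47* was 1.8-fold higher than in untreated cells (0.0112), and LPS+USP7i minus untreated did not pass (−0.06, adjusted p = 0.807). *Dock2* and *Crkl*, which act on the Rac pathway, were 1.76-fold (0.0327) and 1.65-fold (0.0391) lower with the inhibitor than with LPS. Against untreated cells they went apart: in LPS+USP7i *Dock2* was 1.89-fold lower (0.0184) and *Crkl* 1.51-fold higher (0.0451). The nucleotide receptors went apart with LPS: *P2ry2* rose 3.13-fold (0.0105) and *P2ry6* was 2.91-fold lower (0.00281). *Rubcn*, which encodes Rubicon of LC3-associated phagocytosis, was 3.31-fold lower with LPS (0.00639). *Sirpa*, the receptor for CD47, was 2.75-fold lower in LPS+USP7i than in untreated cells (0.0163).

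Regulators known for control of such receptors were the fourth list, with 20 genes. With LPS 5 rose and 5 fell (median −0.07; all probes 7.09% and 10.7%), in LPS+USP7i minus LPS 4 rose and 1 fell (median 0.16; all probes 4.66% and 3.79%), and in LPS+USP7i minus untreated 3 rose and 5 fell (median 0.12; all probes 5.65% and 7.34%). *Maf*, a transcription factor of mature macrophages, read 12.48 and 12.37 without treatment, 12.62 and 12.64 after LPS and 10.68 and 10.64 after LPS+USP7i. Both inhibitor arrays were far below the other 4, and *Maf* was 3.91-fold lower with the inhibitor than with LPS (adjusted p = 0.00987) and 3.39-fold lower than in untreated cells (0.00454). *Cebpa*, a myeloid transcription factor, was 11.2-fold lower with LPS (adjusted p = 0.00494) and 7.30-fold higher with the inhibitor than with LPS (0.0164). The lipid sensors *Ppard* and *Pparg* were 12.4-fold (0.0113) and 2.01-fold (0.0192) higher in LPS+USP7i than in LPS, after both were lower with LPS than in untreated cells (4.61-fold, 0.00724, and 4.75-fold, 0.00304). Against untreated cells, *Ppard* was then 2.69-fold higher (0.0232) and *Pparg* 2.36-fold lower (0.00868). *Tfec* rose 17.7-fold (0.0110) and *Ppargc1b* 5.10-fold (0.0444) with LPS.

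**Figure D4:**
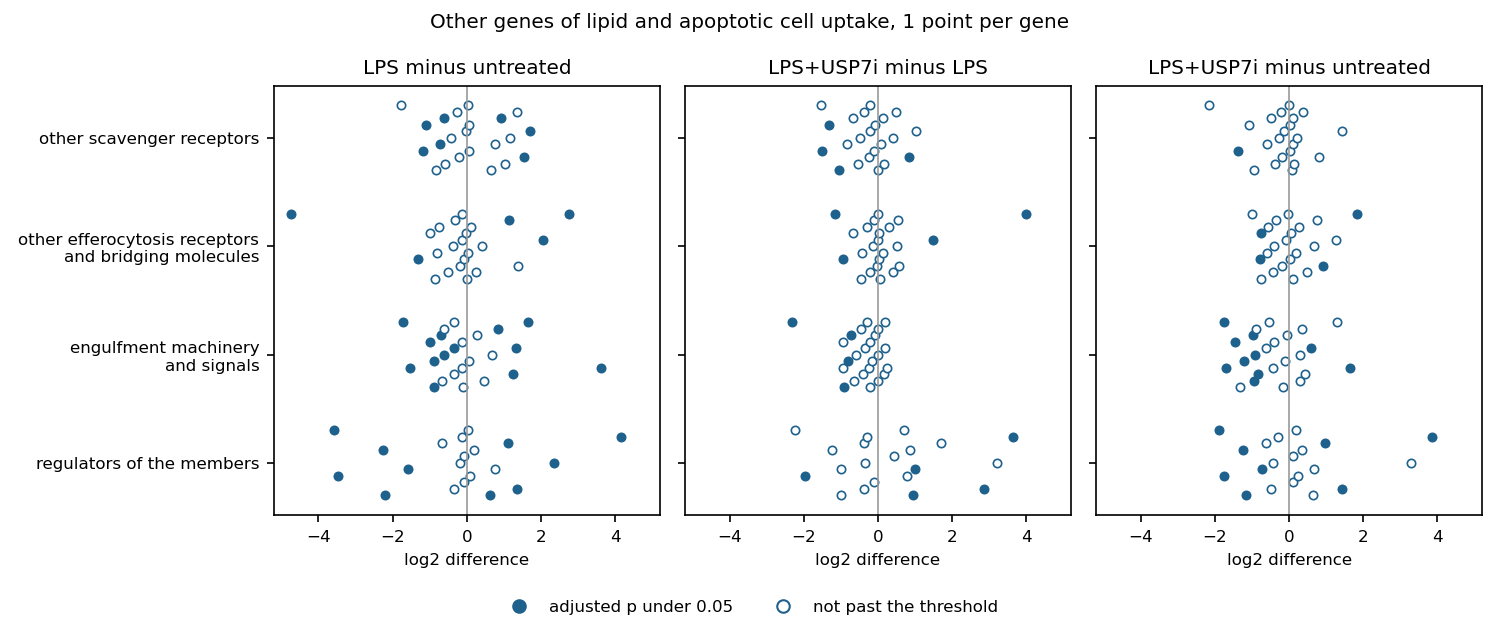
Log2 differences (horizontal axes) of every gene of the 4 lists in the 3 comparisons, 1 point per gene, filled where the adjusted p is under 0.05; points are spread vertically only to keep them apart. The most negative point with LPS is *Cd300lb* at −4.74, which is at 3.98 in LPS+USP7i minus LPS.

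The genes most like each receptor over the 6 arrays were taken by the Euclidean distance of mean-centered log2 values, among 11655 genes well above background on every array. For *Axl* they were *Kmo* and *P2ry14* (distance 0.49 and 0.53), and for *Mertk* *Pdia5* and *Xrcc5* (0.47 and 0.49). *Stab1* was nearest to *Cyren* and *H2bc21* (0.12 and 0.13), and *Scarb1* to *Tmem203* and *Borcs6* (0.08 and 0.09) on its first probe and to *Olfr1115* and *2310034G01Rik* (0.18 and 0.23) on its second. The *Msr1* probes lay nearest to *Acot10* and *Mob1b* (0.24 and 0.32) and to *Akap12* and *Minpp1* (0.44 and 0.45). *Cd36* was nearest to *Gab1* and *2310065F04Rik* (0.18 and 0.23), *Mrc1* to *Lta4h* and *Xpo1* (0.19 and 0.21), and *Marco* to *Cd79a* and *6330407A03Rik* (0.72 and 0.74), so that *Marco* had the most distant neighbors of these genes and a B cell marker first among them.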

How the data were processed

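RNA of the 6 samples was labeled with Cy3 and hybridized to 1-color Agilent mouse arrays. The authors deposited the scanner files, with background-corrected spot intensity values from Agilent Feature Extraction 10.7.3.1, and a table of normalized log2 values, used as an alternative. Here the processed signal of 59305 spots per array was log2-transformed and quantile-normalized, 119 to 172 outlier spots per array were set missing, and spots of a probe were averaged. Between 25002 and 27467 spots per array were well above background and 0 were saturated. Groups were compared with limma 3.58.1 in R 4.3.3, with all 6 arrays in 1 model (3 residual and 1.05 prior degrees of freedom), two-sided, and p values adjusted over 55680 probes by Benjamini-Hochberg. The fit was also run on simulated data, and the outcome is not given here. Probes of a receptor are those so named in the files. Genes of the lists, named through RefSeq of assembly GRCm38.p6, took their brightest probe by mean, and up to 4 per list and comparison were named, those with the largest difference among genes past the threshold and well above background on both arrays of a compared group. Values of 2 genes of the lists are not reported here. The 2 nearest genes were named for receptors well above background on all arrays. The receptors, lists and markers were chosen with earlier results of these data known. Alternatives were 75th percentile scaling, normexp background correction (offset 50), the deposited table, dim probes left out, flagged spots kept, 2-group fits, a replicate block, each array left out and 1 probe per gene.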

Additional observations from a re-analysis of the deposited data

How the results depend on the processing

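Receptor probes called higher with LPS were 3, and became 5 with 75th percentile scaling (39.1% of all probes) and 5 with the replicate block (7.50%). There were 4 with normexp (7.70%), the deposited table (5.71%) or dim probes left out (17.8%). There were 2 with 1 probe per gene, given without a share, and 1 in the fit of 2 groups (6.63%). With any array left out, their number also fell. Receptor probes called lower with LPS were 2, and became 1 with the deposited table (7.36%). Their number fell without an untreated or LPS array and did not change without an LPS+USP7i array. In LPS+USP7i minus LPS, the 1 lower call became 3 with normexp (5.82%), 2 with dim probes left out (13.1%) and 0 with 2 groups (0%). It was also lost with any array left out. The 0 higher calls became 1 with the replicate block (3.50%). In LPS+USP7i minus untreated, the 1 higher call became 2 with 75th percentile scaling (39.4%), normexp (6.92%) or dim probes left out (15.9%). The 2 lower calls became 4 with normexp (9.38%) and 4 with dim probes left out (21.0%). They became 3 with 75th percentile scaling (8.27%), 3 with the replicate block (7.85%) and 1 with 2 groups (4.83%). With an array left out, their number fell in every fit except that without LPS+USP7i replicate 1. Under 75th percentile scaling, both counts of higher calls against untreated cells include *Cd163*, whose signal lay near background on all 6 arrays. Dim probes left out means 25084 probes tested in place of 55680, and fewer samples in a fit leave fewer degrees of freedom; the cause of the other changes was not tested. In LPS+USP7i minus LPS, fits of 2 groups and those without an untreated array called 0 probes at all (smallest adjusted p 0.0561), with 6051 higher and 5206 lower at an unadjusted p under 0.05 for the 2 groups.

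Replicate numbers are shared by the groups, but no label says that a number links them. Deviations from the group mean correlated between arrays of the same number at 0.468, 0.398 and 0.422 over 20705 probes, across only 2 numbers, which coincide with slide columns. With the replicate block, *Marco* and *Msr1* A_52_P607128 passed in LPS minus untreated (adjusted p = 0.0306 and 0.0312), *Cd36* in LPS+USP7i minus LPS (0.0459) and *Mertk* in LPS+USP7i minus untreated (0.0334).

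Small differences changed sign, and the cause was not tested. With LPS, *Cd36* became 0.0503 with 75th percentile scaling, *Cd163* −0.0065 with normexp and −0.0045 to 0.0734 with an array left out, and *Mertk* −0.52 to 0.19 with an array left out. In LPS+USP7i minus LPS, 75th percentile scaling gave −0.0082 for *Scarb1* A_55_P2088965, −0.0016 for *Mrc1* and −0.14 for *Stab1*. The same *Scarb1* probe gave −0.0422 with normexp and −0.0328 in the deposited table. With an array left out, the ranges in this comparison were −0.12 to 0.0251 for *Scarb1* A_55_P1954021, −0.29 to 0.31 for A_55_P2088965, −0.20 to 0.50 for *Mrc1* and −0.12 to 0.22 for *Stab1*. In LPS+USP7i minus untreated, *Marco* ranged from −0.37 to 1.16 with an array left out, and *Cd163* became 0.57 with 75th percentile scaling.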
